A study of Homo sapiens with 6 samples.

Results

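The genes described here are 10 genes of serine synthesis, mitochondrial one-carbon metabolism and the ATF4 stress response: PHGDH, PSAT1, PSPH, SHMT2, MTHFD2, ALDH1L2, ASNS, CHAC1, TRIB3 and ATF4. They were chosen by name, and all 10 were found among the 60612 gene identifiers of the count tables. RNA was sequenced from SKBR3, a HER2-positive human breast cancer line of mammary epithelial origin, in 2 groups of 3 libraries. The parental group had no treatment, and the trastuzumab group received trastuzumab, which binds and blocks HER2, at a concentration raised over 30 weeks. Whether the drug was present at harvest, and whether the treated cells were a pool or a clone, is not given in the sources used here. The words "under trastuzumab" and "treated" below therefore name this group and not the presence of the drug. Nothing in the labels says that replicates were separate cultures, so the p-values below measure only the spread between these libraries, which may be technical.

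Cells make serine from a glycolytic intermediate in a pathway of 3 enzymes, PHGDH, PSAT1 and PSPH. In mitochondria SHMT2 splits serine into glycine and a folate-bound carbon unit, which MTHFD2 oxidises and ALDH1L2 can release as carbon dioxide with NADPH. ATF4 is a transcription factor whose protein is made mainly when the initiation factor eIF2 is phosphorylated, through control of translation, so that its RNA level is not a measure of its protein. It activates genes of amino acid supply, among them PHGDH, PSAT1, SHMT2, MTHFD2 and ASNS, the asparagine synthetase, and also CHAC1, which degrades glutathione, and TRIB3, a pseudokinase that restrains ATF4 itself. PHGDH is gained or highly expressed in a share of breast cancers.

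ATF4 often binds with a C/EBP partner to a composite element, CARE, whose core is written here as TGATGNAA and was sought on both strands. RefSeq promoter windows on GRCh38.p14, from 250 bases before to 50 bases after a gene start, were held for 7 of the 10 genes and were not used here for PSPH, SHMT2 and ALDH1L2. The core was in a window of 2 of these 7 genes (28.6%), ASNS and CHAC1, and of 4.46% of the 27305 genes with a window. Both stretches are shown because they carry the element through which ATF4 is known to act, with the match in capitals and the sequence on the strand of the gene. ASNS lies on the minus strand and its stretch is chr7:97872439-97872506, while CHAC1 lies on the plus strand and its stretch is chr15:40953232-40953299.
ASNS: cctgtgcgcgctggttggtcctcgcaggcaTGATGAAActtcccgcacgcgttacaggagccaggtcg
CHAC1: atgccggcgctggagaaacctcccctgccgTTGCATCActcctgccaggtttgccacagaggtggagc
The ASNS match runs from base -68 to -61 before the start on the gene strand, and the CHAC1 match from -209 to -202 on the other strand. No match says only that these letters are not in the window searched. Of the other motifs, the E-box CACGTG was in the window of ATF4 alone among the 7 genes (8.78% of all genes with a window), and neither the cAMP response element TGACGTCA (2.25%) nor the endoplasmic reticulum stress element (0.092%) was in any of them. Among the 7 genes no matches of different motifs overlapped.

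The libraries held between 71015138 and 82857810 counts. Levels are given as CPM, the counts of a gene scaled to the TMM-adjusted size of its library, and a gene without any count could reach 0.0372 to 0.0428 CPM (the limit set by 3 counts, for counting error only). Genes were tested with edgeR's quasi-likelihood F test over 17854 genes, and a Benjamini-Hochberg adjusted p below 0.05 is called a change. Log2 fold changes, trastuzumab minus parental, carry the standard error of the fit (SE). Levels are shown as mean ± SD of 3 libraries. The summed level of 6 epithelial markers was 18443 to 20194 CPM in parental and 21391 to 22989 CPM in trastuzumab libraries. No marker of the other lists was at 0 in all libraries. The 6 fibroblast markers summed to 9.20 to 19.2 and 6.07 to 10.9 CPM, the 6 immune markers to 14.2 to 16.5 and 40.9 to 48.1 CPM, and the 4 endothelial markers to 28.6 to 31.7 and 79.0 to 86.0 CPM. The last 2 rises lay in CD68 and CDH5. Of these lists 4 immune and 3 endothelial markers could be tested, and 1 of each was called higher and none lower. Of the 6 fibroblast markers 1 was called lower and none higher. The epithelial markers went both ways, with 3 called higher, 2 lower and 1 not past the test. In the fit that removes the trend on GC content and length, described below, 2 of them were higher and 4 lower. PTPRC (0.181 ± 0.157 and 0.132 ± 0.16 CPM) and PECAM1 (0.0678 ± 0.0622 and 0.176 ± 0.0429 CPM) were low in both groups. The part of such cells in the results was not tested.

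Under trastuzumab, 7 of the 10 genes fell, 2 rose and 1 did not pass the test. Of all tested genes 49.3% were called, 23.9% higher and 25.4% lower. At 10 CPM or more on average, a level that 8 of the 10 reach, 72.7% of 9009 genes were called, 35.8% higher and 37% lower, so a call by itself sets the members little apart. In RNA from whole cultures, fewer cells that express a gene and less RNA per cell cannot be told apart. PSAT1, PSPH, MTHFD2, ALDH1L2, ASNS, TRIB3 and ATF4 were lower, while PHGDH and SHMT2 were higher. The changes were modest, from 1.16-fold for TRIB3 to 2.08-fold for ALDH1L2, which alone passed 2-fold, as 7.78% of all tested genes did, 3.85% upward and 3.93% downward. Parental and trastuzumab libraries did not overlap for 9 of the 10 genes, against 57.5% of all tested genes, 28.3% upward and 29.2% downward. The median log2 fold change was -0.41 for the 10 genes and -0.0057 for all tested genes.

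**Figure D1:**
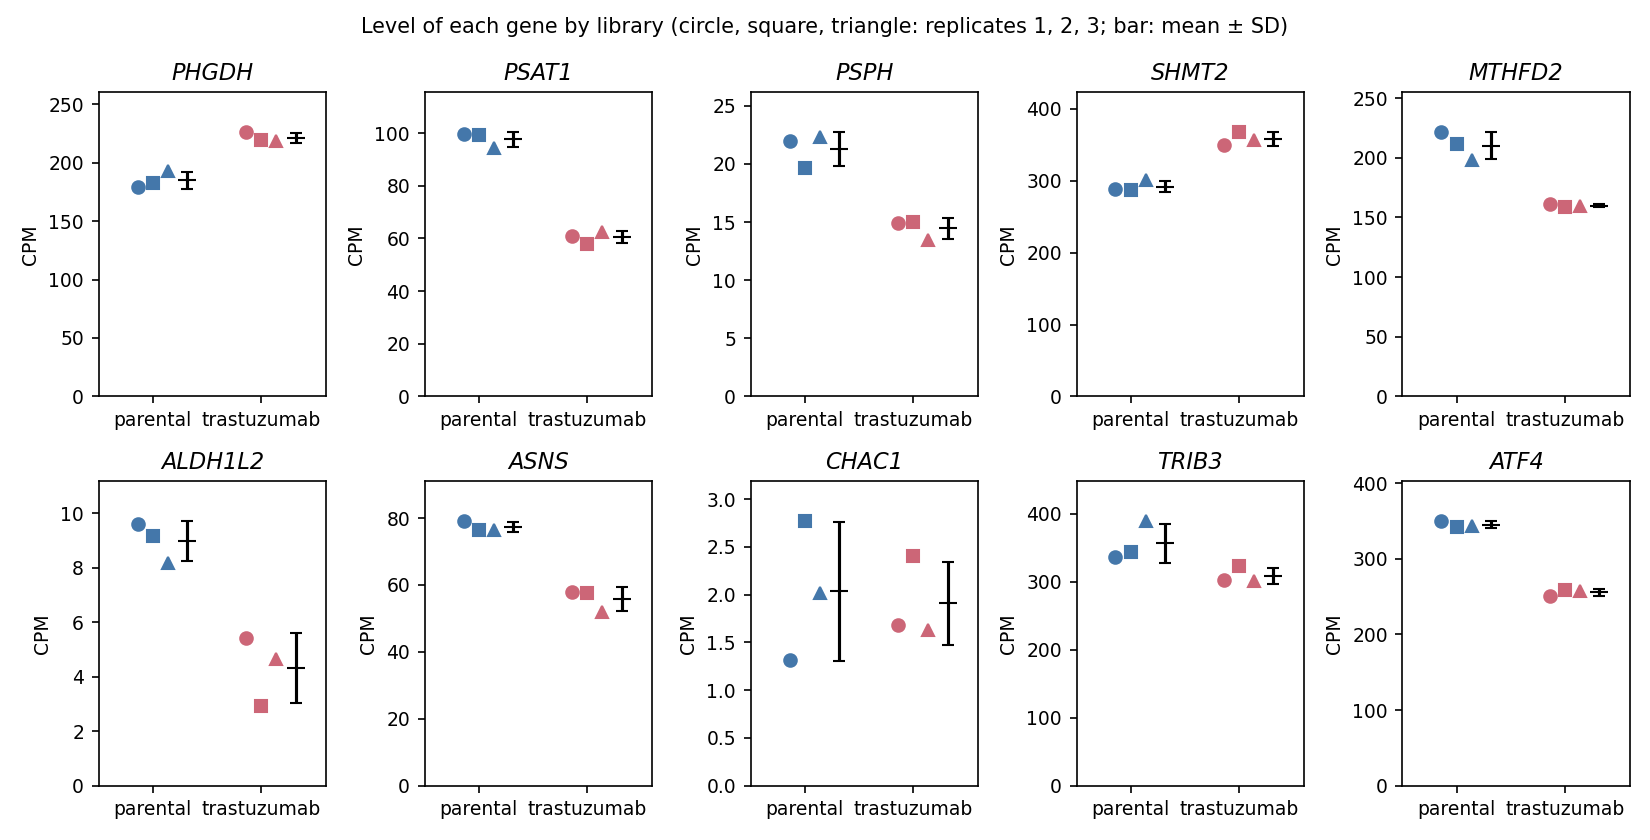
Level in CPM of each of the 10 genes in the 3 parental and 3 trastuzumab libraries (circle, square and triangle for replicates 1, 2 and 3), with the mean ± SD beside them; each axis starts at 0. The groups are apart in every panel but that of CHAC1, upward for PHGDH and SHMT2 and downward for the other 7.

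The serine synthesis enzymes did not move together: the first rose and the next 2 fell. PHGDH (ENSG00000092621, hg38 chromosome 1, 119648411 to 119744226) makes 3-phosphohydroxypyruvate and commits carbon to serine. It stood at 179, 183 and 193 CPM in parental replicates 1 to 3 and at 226, 219 and 218 CPM in the trastuzumab libraries. Every trastuzumab library was above every parental one, with a log2 fold change of 0.26 ± 0.046 (edgeR adjusted p = 0.000154), or 1.20-fold. PSAT1 (ENSG00000135069, chromosome 9, 78297143 to 78330093) is the aminotransferase of the next step, which takes its amino group from glutamate. It had 99.5, 99.2 and 94.5 CPM in parental and 60.8, 57.9 and 62.5 CPM in trastuzumab libraries. All treated libraries were far below the parental range, a fall of 1.62-fold (-0.69 ± 0.052, edgeR adjusted p = 1.89e-08). PSPH (ENSG00000146733, chromosome 7, 56011051 to 56051604), the phosphatase that releases serine, had 22, 19.6 and 22.3 CPM in parental and 14.9, 15.0 and 13.4 CPM in trastuzumab libraries. It fell 1.47-fold without overlap of the groups (-0.56 ± 0.091, edgeR adjusted p = 7.49e-05).

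The balance within the pathway can be read per library as a ratio of the deposited FPKM values, which are per length. PSAT1 over PHGDH was 2.32, 2.26 and 2.04 in parental and 1.12, 1.10 and 1.19 in treated libraries. PSPH over PHGDH was 0.408, 0.356 and 0.384 in parental and 0.218, 0.228 and 0.204 in trastuzumab libraries. Both ratios were lower in each trastuzumab library than in any parental library. The sizes of these ratios depend on the gene lengths the authors used, since the counts and FPKM values together imply 10.4 kb for PHGDH and 2.51 kb for PSAT1, but their change between groups does not.

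The mitochondrial one-carbon enzymes split as well. SHMT2 (ENSG00000182199, chromosome 12, 57229327 to 57234935), the serine hydroxymethyltransferase, had 288, 287 and 301 CPM in parental and 349, 368 and 357 CPM in trastuzumab libraries. The groups did not overlap, and the rise was 1.23-fold (0.30 ± 0.043, edgeR adjusted p = 2.27e-05). MTHFD2 (ENSG00000065911, chromosome 2, 74198562 to 74217565), the methylenetetrahydrofolate dehydrogenase and cyclohydrolase that proliferating cells switch on, had 221, 211 and 198 CPM in parental and 161, 159 and 159 CPM in trastuzumab libraries. Its trastuzumab libraries lay close together and below all parental ones, a fall of 1.31-fold (-0.39 ± 0.048, edgeR adjusted p = 3.56e-06). ALDH1L2 (ENSG00000136010, chromosome 12, 105019784 to 105084577), the mitochondrial 10-formyltetrahydrofolate dehydrogenase, was scarce, at 9.60, 9.17 and 8.18 CPM in parental and 5.41, 2.91 and 4.64 CPM in trastuzumab libraries. Replicate 2 was the lowest of the treated libraries and gave them a coefficient of variation of 29.6%, yet the groups did not overlap (-1.06 ± 0.19, edgeR adjusted p = 0.000249). MTHFD2 over SHMT2 in FPKM was 0.732, 0.702 and 0.627 in parental and 0.44, 0.411 and 0.425 in trastuzumab libraries, without overlap. In a fit that removes the trend on GC content and length, described below, the log2 fold changes of MTHFD2 (-0.11) and SHMT2 (-0.0039) lay much closer together.

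Forms of these enzymes in other compartments or encoded by paralogs did not follow the members in each case. SHMT1, the cytosolic form of SHMT2, rose from 52.5 ± 2.50 to 77.4 ± 1.70 CPM (0.56 ± 0.056, edgeR adjusted p = 4.64e-07). SHMT2 remained the more abundant per length, with 8.30, 9.08 and 9.17 times the FPKM of SHMT1 in parental and 7.32, 7.58 and 7.16 times in trastuzumab libraries. MTHFD1, the cytosolic trifunctional enzyme, fell from 212 ± 5.91 to 182 ± 6.77 CPM (-0.22 ± 0.046, edgeR adjusted p = 0.000884). MTHFD2L, the paralog of MTHFD2, was at 4.6 ± 0.695 and 2.65 ± 0.0693 CPM (-0.80 ± 0.18, edgeR adjusted p = 0.00148). MTHFD1L, the mitochondrial formate-producing synthetase, stood at 50.6 ± 2.73 and 45.8 ± 1.86 CPM and did not pass the test (-0.14 ± 0.065, edgeR adjusted p = 0.0788). ALDH1L1, the cytosolic counterpart of ALDH1L2, stood at 32.8 ± 0.408 and 32.9 ± 1.32 CPM (0.0044 ± 0.069, edgeR adjusted p = 0.967). The FPKM ratio of ALDH1L2 over ALDH1L1 was accordingly 0.427, 0.403 and 0.353 in parental and 0.25, 0.124 and 0.201 in trastuzumab libraries.

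ATF4 was lower under trastuzumab, and so were its targets ASNS and TRIB3. ATF4 (ENSG00000128272, chromosome 22, 39519695 to 39522685) had 350, 342 and 344 CPM in parental and 250.3, 258 and 258 CPM in trastuzumab libraries. It was the steadiest of the 10 genes in the parental group, with a coefficient of variation of 1.22%, and fell 1.35-fold (-0.43 ± 0.041, edgeR adjusted p = 2.34e-07). ASNS (ENSG00000070669, chromosome 7, 97852118 to 97872542), whose CARE match is shown above, had 79.1, 76.4 and 76.3 CPM in parental and 57.9, 57.7 and 51.8 CPM in trastuzumab libraries. Its groups were well apart, a fall of 1.39-fold (-0.47 ± 0.058, edgeR adjusted p = 4.45e-06). ASNS over ATF4 in FPKM was 0.134, 0.133 and 0.132 in parental and 0.138, 0.133 and 0.119 in trastuzumab libraries, which overlap. With the trend on GC content and length removed, as described below, ATF4 fell more than ASNS (-0.76 ± 0.034 against -0.26 ± 0.052). TRIB3 (ENSG00000101255, chromosome 20, 362835 to 397559) had 336, 344 and 389 CPM in parental and 303, 322 and 300.1 CPM in trastuzumab libraries. The highest treated library was close to the lowest parental one, and the fall of 1.16-fold was the smallest called among the 10 (-0.21 ± 0.054, edgeR adjusted p = 0.00429). TRIB3 over ATF4 in FPKM was 0.922, 0.967 and 1.09 in parental and 1.16, 1.20 and 1.12 in trastuzumab libraries, without overlap.

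CHAC1 (ENSG00000128965, chromosome 15, 40952962 to 40956519), the gamma-glutamylcyclotransferase that breaks down glutathione, was the 1 gene of the 10 without a call. It had 1.31, 2.77 and 2.02 CPM in parental and 1.68, 2.4 and 1.63 CPM in trastuzumab libraries, on 97 to 204 counts. The groups overlapped entirely, and replicate 2 was the highest library of each. The log2 fold change was -0.092 ± 0.29 (edgeR adjusted p = 0.827), with a 95% confidence interval from -0.70 to 0.51, so a fall as large as that of ATF4 or ASNS lies within what this depth and spread leave possible. The sign turned without parental replicate 2 (0.20) and without trastuzumab replicate 3 (0.0064), with no call in either fit.

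Per length, the 10 genes covered a wide range of levels. In FPKM, parental cells had ATF4 (107 ± 2.02) and TRIB3 (106 ± 7.38) at the top with overlapping libraries, then SHMT2 (57.3 ± 0.94), PSAT1 (39.9 ± 1.56) and MTHFD2 (39.3 ± 2.54), of which the last 2 overlapped. PHGDH (18.1 ± 0.526), ASNS (14.2 ± 0.4) and PSPH (6.93 ± 0.451) followed, each apart from the next. CHAC1 (0.89 ± 0.32) and ALDH1L2 (0.847 ± 0.0777) overlapped at the bottom. Under trastuzumab, TRIB3 (87.4 ± 3.32) stood above ATF4 (75.3 ± 1.13) and MTHFD2 (28.5 ± 0.274) above PSAT1 (23.5 ± 0.917), without overlap in either pair, and no neighbours in the order overlapped. No library stood at one end of its group for all genes: replicate 3 of the trastuzumab group was the lowest of its group for 5 genes and the highest for 1, and each other library was the highest for 1 to 5.

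Fold changes over all genes moved with base composition, and the members have to be read against that. Among protein-coding genes the median log2 fold change rose from -0.49 in the quintile of lowest transcript GC content to 0.37 in the quintile of highest. PHGDH (56.2% GC, 0.26) and SHMT2 (57.4%, 0.30) lay near the median of 0.25 of their quintile. MTHFD2 (43.1%, -0.39), ASNS (44.6%, -0.47) and PSAT1 (43.7%, -0.69) lay below the median of -0.29 of theirs, and ALDH1L2 (42.1%, -1.06) below -0.49. Some members of higher GC content also stood below their peers. PSPH (51.2%) stood at -0.56 where the median was 0.0034, ATF4 (55.3%) at -0.43 where it was 0.25, and TRIB3 (61.7%) at -0.21 where it was 0.37. CHAC1 (62.6%), which has no call, stood at -0.092 in the same quintile as TRIB3.

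**Figure D2:**
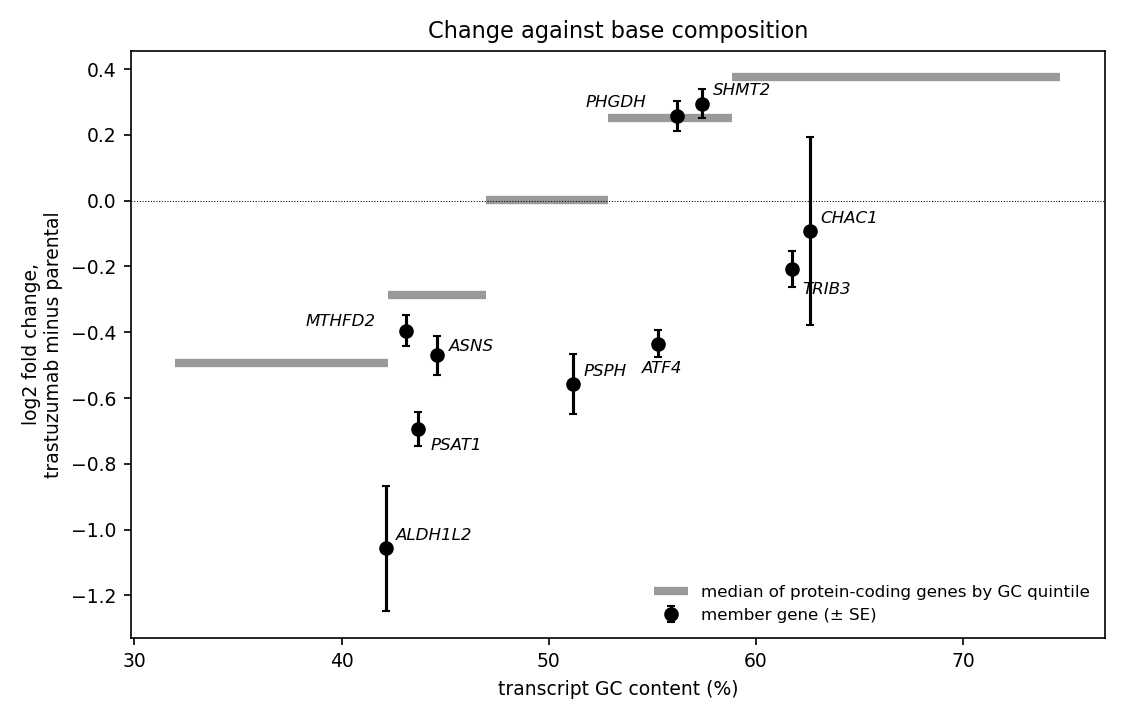
Log2 fold change (trastuzumab minus parental, ± SE) of the 10 genes against the GC content of their transcripts in percent, with grey bars for the median of protein-coding genes in each quintile of GC content. PHGDH and SHMT2 sit near the grey bar of their GC content, while ATF4, TRIB3 and PSPH sit well below theirs.

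A second fit removed from each library a smooth trend on GC content and exonic length, and called 37.9% of 17649 genes, 19% higher and 18.9% lower. Of the 10 genes, 7 were lower, 1 was higher and 2 did not pass in it, with a median of -0.52. The rise of SHMT2 was gone (-0.0039 ± 0.032, edgeR adjusted p = 0.943) and that of PHGDH was smaller (0.14 ± 0.036, adjusted p = 0.0047). With GC content alone removed PHGDH had no call either (-0.0040, adjusted p = 0.948). The falls of ATF4 (-0.76 ± 0.034), TRIB3 (-0.60 ± 0.038) and PSPH (-0.72 ± 0.084) were larger than without the correction. PSAT1 stood at -0.52 ± 0.043, ALDH1L2 at -0.60 ± 0.17, ASNS at -0.26 ± 0.052 and MTHFD2 at -0.11 ± 0.034, all called, and MTHFD2 lost its call with GC content alone removed (-0.060, adjusted p = 0.20). CHAC1 moved to -0.53 ± 0.28 and did not pass (adjusted p = 0.153). Whether the trend is technical or part of the difference between the cells was not tested, and where it follows the group the correction also removes real changes linked to GC content.

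**Figure D3:**
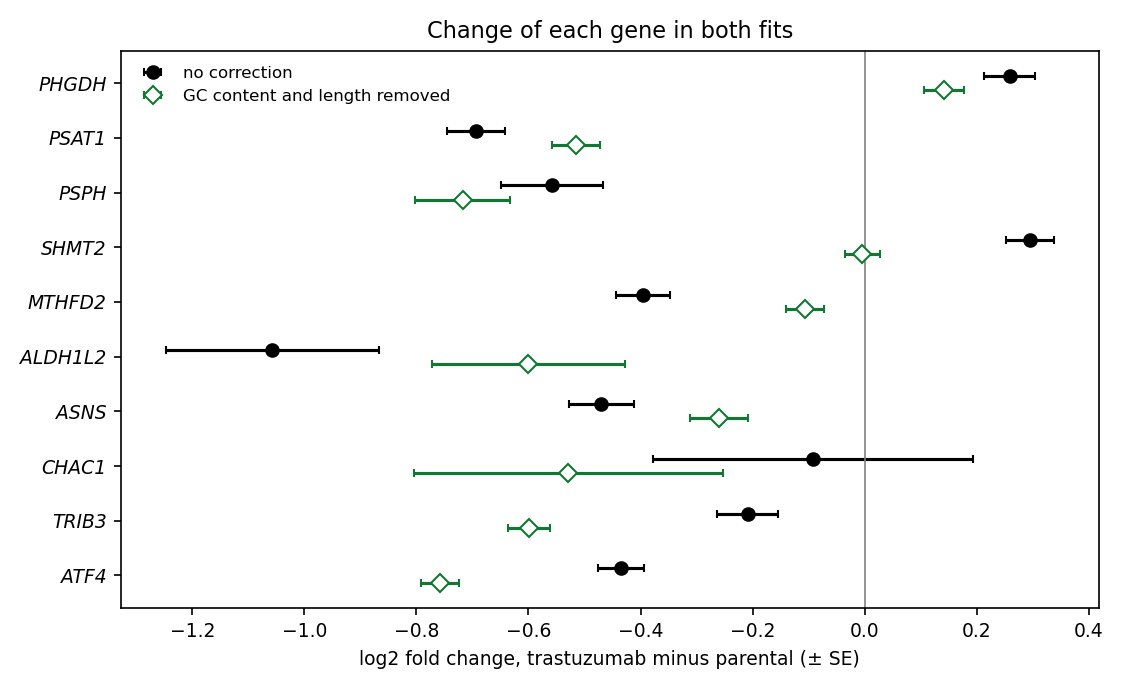
Log2 fold change (trastuzumab minus parental, ± SE) of each gene without correction (black circles) and with the trend on GC content and length removed (open green diamonds). PSAT1, PSPH, ALDH1L2, ASNS, TRIB3 and ATF4 lie clearly below 0 in both fits, while SHMT2 moves from 0.30 to -0.0039.

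Reads of neighbouring or copied sequence bear on some of these genes, since no source used here gives the counting rules or their strand setting. ALDH1L2 overlaps NOPCHAP1 on the other strand, which was more abundant and also fell, from 24.1 ± 1.6 to 14.3 ± 0.124 CPM (-0.75 ± 0.085), so part of the ALDH1L2 counts is uncertain. ASNS overlaps the unnamed transcript ENSG00000284707 on its own strand, which ranged from 7.81 to 13.04 CPM in parental and from 3.28 to 19.0 CPM in trastuzumab libraries. This transcript held 265 to 1526 counts in a library. It was highest in trastuzumab replicate 3, where ASNS was lowest (51.8 CPM), so part of the ASNS counts is uncertain as well. The genes overlapping MTHFD2 and SHMT2 on the other strand held at most 150 counts in a library. Annotated pseudogenes with any count (MTHFD2P3, MTHFD2P7, ASNSP1, ASNSP3 and ATF4P1 to ATF4P4) each held at most 0.247% of the counts of their parent gene. PHGDH, PSAT1, PSPH, CHAC1, TRIB3 and ATF4 overlap no other annotated gene.

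Other genes of folate metabolism and glycine cleavage changed in both directions, 8 of 24 tested genes being higher, 10 lower and 6 without a call (median -0.071, and 6 higher and 6 lower with the correction). Beside this and the lists that follow, 23.9% of all tested genes were higher and 25.4% lower. At 10 CPM or more on average these shares were 35.8% and 37%, and with the correction, over all genes, 19% and 18.9%. Whether a list differs from these shares was not tested. Among the genes of this list that rose were several of folate uptake, of which the 2 with the largest changes are given. FOLR1, the folate receptor alpha, rose from 7.14 ± 1.16 to 23.6 ± 0.356 CPM (1.72 ± 0.12), and SLC46A1, the proton-coupled folate transporter, from 68.4 ± 3.93 to 140 ± 1.43 CPM (1.04 ± 0.052). These 2 rises and that of SHMT1 kept their calls with the correction, whereas the falls of MTHFD2L (-0.15, adjusted p = 0.564) and MTHFD1 (0.013, adjusted p = 0.831) did not.

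In methionine metabolism and transsulfuration the 11 tested genes comprised 4 that rose, 3 that fell and 4 without a call (median 0.29, corrected 0.21 with 6 higher and 2 lower). AHCY, which removes S-adenosylhomocysteine, rose from 383 ± 17.9 to 545 ± 23.4 CPM (0.51 ± 0.047). MAT1A, a methionine adenosyltransferase best known from liver, rose from 0.223 ± 0.176 to 1.95 ± 0.0698 CPM (3.12 ± 0.45), with as few as 8 counts in a parental library. Without parental replicate 3 the log2 fold change of MAT1A was 3.98, and over the 6 fits without 1 library it ran from 2.79 to 3.98. AHCYL2, an AHCY-like protein, fell from 16.9 ± 1.85 to 9.73 ± 0.559 CPM (-0.79 ± 0.11). CBS, which condenses serine with homocysteine, went from 4.93 ± 1.06 to 9.92 ± 3.83 CPM (1.01 ± 0.29, edgeR adjusted p = 0.0244), a call lost with the correction (0.111) and without parental replicate 1 (0.112) or 3 (0.111) or trastuzumab replicate 1 (0.0603).

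Further genes known as ATF4 targets changed in both directions. Among those of amino acid and redox supply, 7 of 17 rose, 6 fell and 4 did not pass (median 0.037), against 3 higher and 10 lower with the correction (median -0.18). SLC7A11, the cystine importer, fell from 10.8 ± 1.34 to 2.89 ± 0.25 CPM (-1.91 ± 0.15), and SLC38A1, a glutamine transporter, from 469 ± 31.0 to 237 ± 10.7 CPM (-0.99 ± 0.052). SLC3A2, the heavy chain shared by several amino acid transporters, rose from 671 ± 57.5 to 1060 ± 30.7 CPM (0.66 ± 0.054), and SLC1A5, a glutamine transporter, from 715 ± 23.5 to 1079 ± 17.3 CPM (0.59 ± 0.04). All of these 4 kept call and direction with the correction. With library totals alone as scaling, 4 genes of this list were called higher.

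The stress-related targets were as mixed, 9 of 24 tested genes being higher, 8 lower and 7 without a call (median -0.058), and 7 higher and 8 lower with the correction (median -0.039). GDF15, a secreted stress cytokine, rose from 1.85 ± 0.227 to 10.04 ± 0.216 CPM (2.44 ± 0.15), and PPP1R15A, which directs the dephosphorylation of eIF2, from 12.5 ± 0.594 to 25.8 ± 0.596 CPM (1.05 ± 0.084). STC2, a secreted glycoprotein, fell from 5.29 ± 1.26 to 2.21 ± 0.106 CPM (-1.26 ± 0.20). CCPG1, an autophagy receptor of the endoplasmic reticulum, fell from 13.3 ± 1.70 to 7.33 ± 0.644 CPM (-0.86 ± 0.13), a call lost with the correction (adjusted p = 0.0734).

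Cytosolic tRNA synthetases, many of which ATF4 is known to activate, fell in 12 of 20 cases, rose in 4 and did not pass in 4 (median -0.22), with 11 lower and 3 higher after correction (median -0.17). IARS1 fell from 228 ± 3.56 to 116 ± 4.49 CPM (-0.97 ± 0.046), GARS1 from 220.5 ± 6.55 to 120 ± 9.67 CPM (-0.88 ± 0.056), EPRS1 from 183 ± 19.2 to 104 ± 6.53 CPM (-0.82 ± 0.071) and TARS1 from 136 ± 12.1 to 78.1 ± 1.96 CPM (-0.81 ± 0.06). These enzymes charge tRNAs with isoleucine, glycine, glutamate and proline, and threonine, and all 4 falls held with the correction.

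A list of eIF2 kinases and other genes tied to the control of ATF4 is called upstream genes below for short. Not all of its genes act before ATF4. They fell in 12 of 22 cases, rose in 4 and did not pass in 6 (median -0.21), with 7 lower and 6 higher after correction (median -0.035). TRIB2, a pseudokinase related to TRIB3, fell from 12.5 ± 0.884 to 6.08 ± 0.606 CPM (-1.04 ± 0.12), and OMA1, the mitochondrial protease that triggers the stress signal to eIF2, from 13.7 ± 1.95 to 8.04 ± 0.168 CPM (-0.77 ± 0.12). NFE2L2, the antioxidant transcription factor NRF2, fell from 42.2 ± 3.63 to 27.7 ± 1.88 CPM (-0.61 ± 0.08), and EIF2S2, the beta subunit of eIF2, from 94.3 ± 5.48 to 62.0 ± 2.93 CPM (-0.61 ± 0.057). The 4 kept their calls with the correction.

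The list of the ATF6 and XBP1 arm of the unfolded protein response, which includes chaperones of the endoplasmic reticulum, is not fully separate from ATF4. Of its 20 genes, 1 carries the CARE core in a promoter window. The list fell in 10 of 20 cases, rose in 2 and did not pass in 8 (median -0.11, corrected -0.16 with 11 lower and 2 higher). Without parental replicate 1 only 6 were lower, and without parental replicate 3 there were 5 higher. SEL1L, a scaffold of protein degradation, fell from 82.7 ± 4.47 to 48.7 ± 3.54 CPM (-0.76 ± 0.065), and the chaperone HSP90B1 from 536 ± 49.0 to 338 ± 14.9 CPM (-0.66 ± 0.06). DNAJC3 fell from 136 ± 9.22 to 86.7 ± 3.48 CPM (-0.66 ± 0.056) and HSPA5, the main chaperone of this compartment, from 601 ± 21.4 to 453 ± 7.98 CPM (-0.41 ± 0.042). These falls kept their calls with the correction but were smaller. SEL1L then stood at -0.23, HSP90B1 at -0.35, DNAJC3 at -0.23 and HSPA5 at -0.28.

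**Figure D4:**
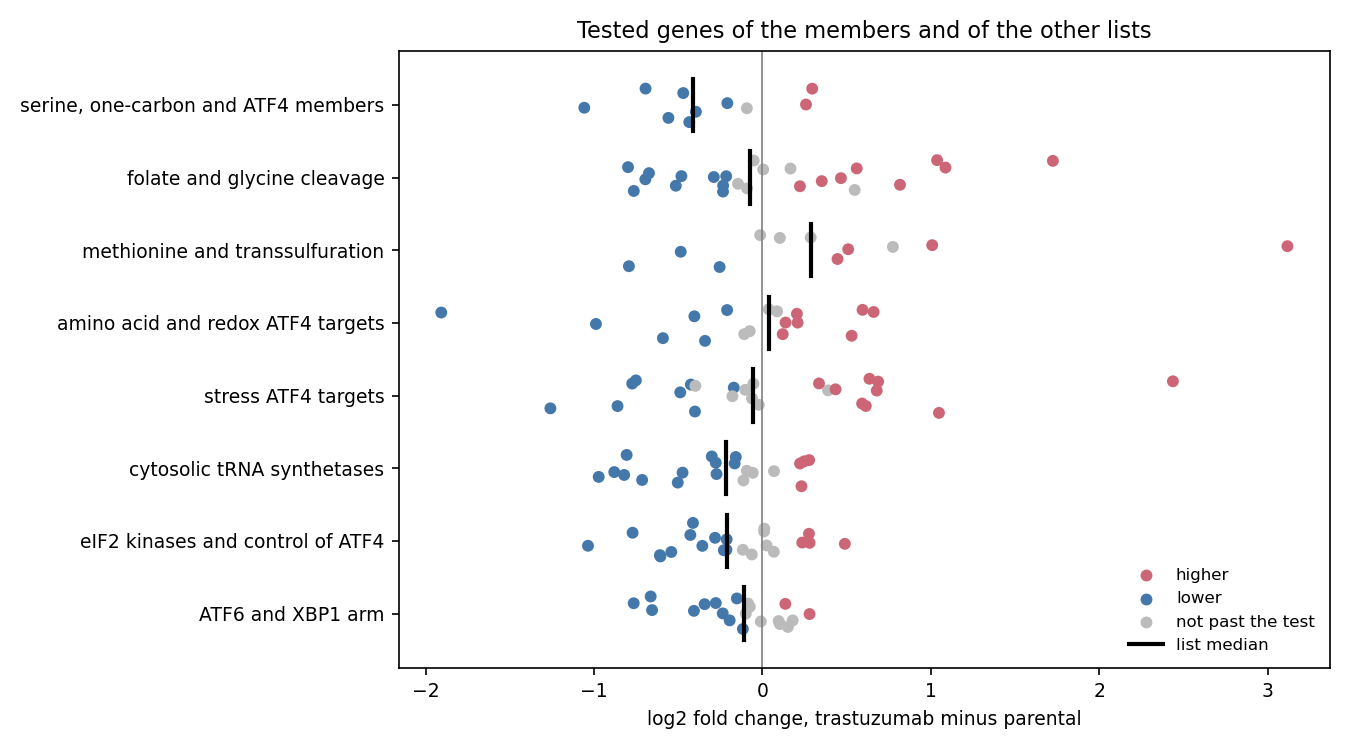
Log2 fold change (trastuzumab minus parental) of each tested gene of the 10 members and of the other 7 lists, coloured by call, with a black bar at the list median. The members lie mostly to the left of 0 (median -0.41), while both lists of further ATF4 targets spread over both sides (medians 0.037 and -0.058).

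Genes of these lists that carry the CARE core in a promoter window changed in both directions. Of 23 such genes tested, ASNS and CHAC1 included, 13 fell, 3 rose and 7 did not pass. With or without the core, 7 of the 10 members fell and 2 rose. Of the other 138 tested genes of the lists 61 fell and 38 rose. The core was in a window of 7 of 16 tRNA synthetases, a list of which 12 of 20 fell. Over all tested genes with a window, 36.2% of the 318 with the core were lower and 21.7% higher (median -0.18), against 30.2% and 27.4% of the 11487 without it (median -0.012). With the correction these medians were -0.076 and -0.0010. These counts are a description, and nothing particular to the element is read from them. The following stretches show the same core before genes that fell (GARS1 and CEBPG, an ATF4 partner) and before genes that rose (SLC1A5 and the stress factor ATF3), chosen after their values were seen, with the match in capitals.
GARS1: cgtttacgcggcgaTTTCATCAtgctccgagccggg
CEBPG: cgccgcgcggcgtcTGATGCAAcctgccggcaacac
SLC1A5: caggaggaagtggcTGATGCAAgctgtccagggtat
ATF3: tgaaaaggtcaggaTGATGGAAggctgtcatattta
They lie at chr7:30594831-30594866 (plus strand), chr19:33374057-33374092 (plus), chr19:46784890-46784925 (minus) and chr1:212565202-212565237 (plus) on GRCh38.p14. CEBPG and SLC1A5 carry the identical 8 letters, with log2 fold changes of -0.43 and 0.59, and GARS1 and ATF3 stood at -0.88 and 0.59.

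All 9 calls among the 10 genes kept their direction and passed the test in each of the 6 fits that left out 1 library.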

How the data were processed

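Total RNA of 6 SKBR3 samples was purified with a Qiagen RNeasy kit, and 1 µg of each went into a directional NEBNext Ultra II library, per the labels' protocols. The authors deposited raw counts per gene and FPKM values, to 2 decimals, for 33686 of the 60612 genes. STAR 2.4.2a and hg38 were used, per the submitters' processing notes; no source used here names the counting program, its strand setting or the annotation. The test was the robust quasi-likelihood F test of edgeR 4.0.16 (R 4.3.3) on these counts, after filterByExpr and with TMM scaling, for trastuzumab minus parental without covariates. The correction used offsets per library from splines of 5 degrees of freedom on GC content and exonic length, taken from GENCODE 29. Symbols came from a gene name table, which matched all listed genes. Depth was 71015138 to 82857810 counts per library, so among the 10 members counting error is small except for CHAC1 and ALDH1L2. Some other named genes also had few counts, down to 8 in a library for MAT1A and 120 for GDF15. In simulated counts for 17339 genes, 67 genes were changed 1.5-fold, 67 changed 2-fold and 66 changed 4-fold. The test recovered 67.2%, 85.1% and 100% of them. In the data 49.3% of tested genes were called, a far larger share, so these values do not measure how many real changes the test finds.

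The members, lists and motifs were chosen with earlier results of these data known. Named were all 10 members, up to 4 called genes per list with the largest change and at least 1 CPM in the higher group, 5 paralogs and pseudogenes with any count. 1 gene that the rule names is not reported here. Alternatives were other scaling factors and filters, DESeq2 1.42.0, limma-voom and limma 3.58.1 on log2(FPKM + 1) and log2(FPKM + 0.1) with at least 1 FPKM in 3 libraries or no filter, an adjusted p below 0.01, a replicate block, corrections for base composition, and leaving out libraries.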

Additional observations from a re-analysis of the deposited data

How the results depend on the processing

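No outlying library could be sought within groups of 3. Of 909 values of the named genes over the alternatives, 878 kept their side of the threshold with no change of sign in a called value, 18 lost the call, 7 gained one and 6 changed sign with a call on at least 1 side. A further 12 sign changes, 2 of CHAC1 (0.0064 and 0.20) and 10 of ALDH1L1 (-0.072 to -0.0042), had no call on either side. Of the 6, sign changed for SHMT2 with GC content and length removed (-0.0039, and -0.0038 with the replicate block as well), for PHGDH (-0.0040) and ALDH1L1 (-0.29) with GC content alone removed, and for MTHFD1 with GC content and length removed (0.013, and 0.013 with the block). The cause was not tested. The members called higher, 2 in the report, numbered 1 with GC content and length removed, with or without the block, and 0 with GC content alone removed, while 7 were called lower or, with GC content alone removed, 6. Without trastuzumab replicates 2 and 3 together, which leaves 1 library assumed to vary like the parental group, 2736 genes were called higher in all in place of 4274, and 24 listed genes in place of 38. That setting also called 5 folate genes higher and 6 lower, 3 amino acid and redox targets higher, 2 upstream genes higher, and 0 higher and 6 lower in the ATF6 and XBP1 arm. With GC content and length removed, alone and with the block, 6 folate genes and 7 upstream genes were lower and 3 amino acid and redox targets higher; 10 of these targets were lower without the block. Amino acid and redox targets called higher numbered 4 with library totals alone, with log2(FPKM + 1) without a filter, at an adjusted p below 0.01 and with GC content alone removed. In the ATF6 and XBP1 arm 5 genes were higher with upper quartile factors, 1 with library totals alone, with both filtered FPKM fits and with GC content alone removed, and 0 with log2(FPKM + 1) without a filter. Both filtered FPKM fits, which test fewer genes, called 2 methionine genes higher. Leaving out 1 library at a time gave 2 to 5 genes higher and 6 to 10 lower in the ATF6 and XBP1 arm, and no other count moved by over 1.5 times. The CARE share was 28.6% of the members and 3.89% of all genes in the 250 bases before the start.

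The labels give no pairing beyond the shared replicate number, and the main fit did not use it. Deviations from the group means of same-numbered libraries correlated at 0.021, 0.0764 and 0.113 over 13206 genes. Libraries of different number correlated at -0.0964 to 0.0191, so every library correlated best with its own number. Whether the numbers pair the samples was not tested. With the replicate block, 4219 genes were higher and 4434 lower in all, and 2 members higher and 7 lower.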
